A study of Xenopus laevis with 13 samples.

Results

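The step from tailbud to tadpole was examined in whole embryos of Xenopus laevis, the African clawed frog, by setting the array of stage 40 against the array of stage 35. The 2 arrays were chosen by the sample titles and belong to a series of 13, with 1 array for each stage that was sampled after the table of Nieuwkoop and Faber. The RNA of each stage came from dejellied embryos raised in dilute Steinberg's solution, and no treatment, mutation, strain or sex is given for either stage. The other 11 arrays covered the unfertilized egg, the 2-cell and 16-cell stages and stages 8, 9, 10.5, 12, 15, 20, 25 and 30, and were used here for the earlier history of the probes that changed. In the description labels the stage 40 sample is called stage 35 and the stage 35 sample is called stage 30, so the titles and the developmental stage labels, which were the same as one another for both samples, decided the groups.

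Around these stages the embryo hatches from its envelope with the help of a hatching enzyme, and then lives on yolk until it begins to feed. Blood begins to circulate, and the eye, gut, liver and pancreas go on to form their mature cell types. Much of the RNA of the egg and of the cleaving embryo was laid down by the mother, and the embryo's own genome becomes active in the blastula, so a probe detected in the cleaving embryo reads mostly maternal RNA.

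Each array carried 45220 spots, of which 1417 were controls, and the remaining 43803 probes represented 28256 accessions. A level is the log2 of the scanner's background-corrected signal minus the 75th percentile of that array, and a probe is called detected where the scanner software marked it as well above background. Detected probes made up 79.5% (34830 probes) at stage 40 and 73.9% (32380 probes) at stage 35. Both stages detected 32164 probes and neither detected 8757. The lowest detected signal was 13.7 at stage 40 and 21.0 at stage 35, which lay at levels of -6.95 and -6.16. The negative control spots had a median signal of 3.1 (SD 1.34) at stage 40 and 4.7 (SD 4.35) at stage 35. Stage 40 was alone on its slide and stage 35 shared a slide with stages 20, 25 and 30, so slide and stage cannot be told apart. With 1 array per stage there was no replicate check, no test was made, and every count below describes these 2 RNA samples. A probe was identified by an accession and carried no gene name, so the marker genes of tadpole tissues could not be looked up and the identity of the whole embryo was not checked against them.

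The precision within an array could be read from the spike-in controls, RNAs added during labeling, each of which was spotted 32 times. For the 7 of 10 spike-ins that were detected on all arrays, the SD of the log2 signal over spots was 0.0587 to 0.0924 at stage 40 and 0.0350 to 0.0784 at stage 35. Their unscaled signals differed by -0.07 to 0.01 (stage 40 minus stage 35, log2). These spots were read from 1 labeling of each stage and do not measure the spread between embryos.

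Across the 32164 probes detected on both arrays, levels at stage 40 and stage 35 were correlated (Pearson r = 0.969 across probes, which are not independent). The difference had a median of -0.04 and an SD of 0.65 and ranged from -6.11 to 9.64. Of the 35046 probes detected on at least 1 of the arrays, 3827 (10.9%) differed by at least 2-fold, with 2670 higher and 1157 lower at stage 40. Among the probes detected on both arrays, 1713 (5.33%) were at least 2-fold higher at stage 40 and 953 (2.96%) were at least 2-fold lower. At least 4-fold, 430 (1.34%) were higher and 155 (0.482%) were lower. These are all the probes of the array and not a chosen list, so the shares are themselves the background for what follows. Of the probes that differed and were detected on both arrays, 64.3% were higher, and this split depended on the scaling. When the arrays were scaled to the spike-ins, 2408 were higher and 623 lower (79.4% higher), and when they were scaled to the median, 1509 were higher and 1113 lower (57.6% higher). With normexp background correction and quantile normalization together, 1095 were higher and 618 lower, while quantile normalization alone gave 1874 higher and 1423 lower. Spike-in scaling moved the median difference of all probes to 0.15, against -0.06 with the 75th percentile.

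**Figure D1:**
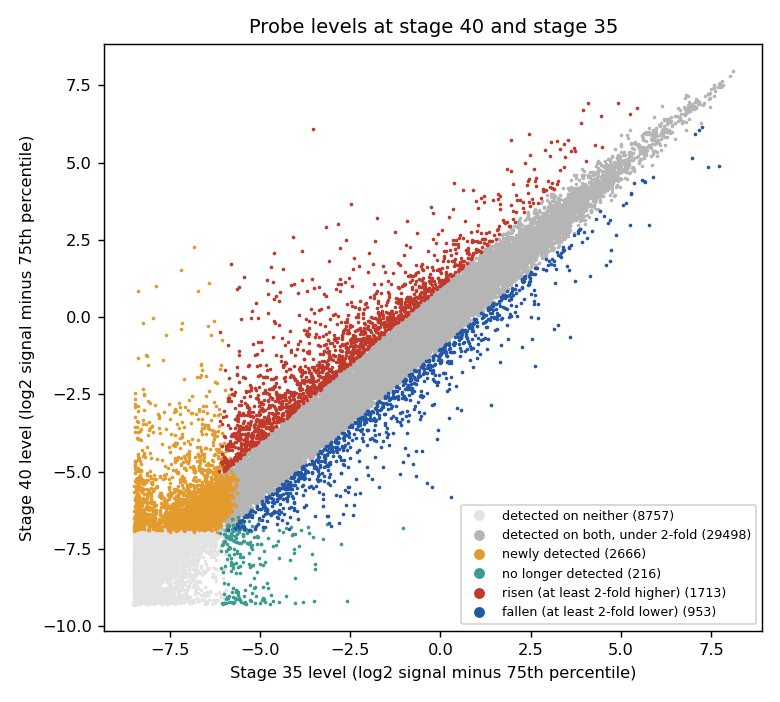
Level of each of 43803 probes at stage 40 (vertical axis) against its level at stage 35 (horizontal axis), both as log2 signal minus the 75th percentile of the array. Colors mark 1713 probes at least 2-fold higher and 953 at least 2-fold lower on 2 arrays that detected them, 2666 newly detected and 216 no longer detected, and most newly detected probes lie at the dim end.

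The probes that were higher at stage 40 had a median level that was already increasing over the arrays before it. It was -5.46 (stage 20), -4.81 (stage 25), -3.88 (stage 30), -3.07 (stage 35) and -1.17 (stage 40), of which the last step was fixed by the choice of the set. Before stage 10.5 it lay between -7.05 and -6.84, close to the detection limits. The 2-cell array detected 48.2% of these probes, the stage 20 array 57.0%, the stage 25 array 71.6% and the stage 30 array 90.0%. For all probes detected at both stage 40 and stage 35 it was 81.7% (2-cell), 93.9% (stage 20), 96.7% (stage 25) and 99.0% (stage 30). Stage 40 held the highest level of all 13 arrays for 1338 of the 1713 probes (78.1%), against 16.4% of all probes detected at both stage 40 and stage 35, and part of this share was fixed by the choice of the set. Of the 1605 that had been detected on some earlier array, 810 had their highest earlier level at stage 30 and 264 in the egg. These were 47.3% (stage 30) and 15.4% (egg) of the 1713. The shares among all probes detected at both late stages were 19.1% (stage 30) and 27.5% (egg). The egg array had the lowest 75th percentile of signal (942) and the highest detection limit (-5.42) of the series. From the egg to the 2-cell stage, 17.5% of the probes detected on both arrays were at least 2-fold higher and 27.0% at least 2-fold lower. The part of the array itself in the egg shares was not tested. On the 11 earlier arrays, 407 of the 1713 (23.8%) were detected throughout, against 22585 (70.2%) of all 32164 probes detected at both stages. Detection on none of them was found for 108 (6.30%) of the 1713, against 158 (0.491%) of the 32164.

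The same set could be divided by its signal in the early embryo. Of the 1713 probes, 711 (41.5%) were detected on all 4 arrays of the 2-cell stage to stage 9 and 836 (48.8%) on none of them, while of all 32164 probes detected at both late stages 25129 (78.1%) were on all 4 and 5380 (16.7%) on none. For the 836 probes without early detection, the median level was -8.94 (2-cell), -6.85 (stage 20), -5.69 (stage 25), -4.43 (stage 30), -3.42 (stage 35) and -1.47 (stage 40). The 711 probes with early detection followed another course. Their median was -2.58 at the 2-cell stage, reached its lowest value of -4.08 at stage 20, and then increased, with -3.30 (stage 30), -2.43 (stage 35) and -0.88 (stage 40). Among these 711, 231 were missed on at least 1 array between stages 10.5 and 30 and were detected again at both stage 40 and stage 35. The same was found for 1328 of the 25129 probes with early detection among all those detected at both late stages. The lowest detected level was -6.91 at the 2-cell stage and -5.72 at stage 12. The part of these limits in the misses was not tested.

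The probes that were lower at stage 40 had their highest median level in the neurula. The median level was -6.36 (stage 9), -4.30 (stage 10.5), -1.96 (stage 12), -0.66 (stage 15), -0.14 (stage 20), -0.25 (stage 25), -0.67 (stage 30), -1.33 (stage 35) and -3.01 (stage 40). The median was highest at stage 20, in the neurula, and lower at each sampled stage after it, and the last of these steps was fixed by the choice of the set. Detection was found for 42.2% of them in the egg, and for 64.8% (stage 10.5), 76.9% (stage 12), 89.0% (stage 15) and 98.4% (stage 30) later. For all probes detected at both late stages it was 74.9% (egg), 85.8% (stage 10.5), 87.0% (stage 12), 90.7% (stage 15) and 99.0% (stage 30). The shares were therefore close to each other from stage 15 on. The highest earlier detected level lay at stage 30 for 238 probes, at stage 20 for 186, at stage 15 for 137, at stages 12 and 25 for 117 each and in the egg for 81, of the 949 detected on some earlier array. These were 24.97% (stage 30), 19.5% (stage 20), 14.4% (stage 15), 12.3% (stages 12 and 25 each) and 8.499% (egg) of the 953. For all probes detected at both late stages the shares were 19.1% (stage 30), 7.65% (stage 20) and 10.98% (stage 15). They were 10.6% (stage 12), 5.92% (stage 25) and 27.5% (egg) for the others. The lower probes therefore had a larger share at stage 20 and a smaller share in the egg than all probes. What was said above of the egg array applies here too. The median of the 155 probes that were at least 4-fold lower was also highest at stage 20, at 1.15. Stage 40 held the lowest level of all 13 arrays for 177 of the 953 probes (18.6%), against 14.5% of all probes detected at both stage 40 and stage 35. Part of this share, too, was fixed by the choice of the set.

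The lower probes could be divided in the same way. On all 4 arrays of the 2-cell stage to stage 9, 435 (45.6%) were detected, on none of these arrays 418 (43.9%) and on some of them 100 (10.5%). Of all 32164 probes detected at both late stages, 78.1% were on all 4 and 16.7% on none. The 435 with early detection had a median of -1.85 (2-cell), 0.43 (stage 20), -0.49 (stage 30), -0.96 (stage 35) and -2.56 (stage 40). The 418 without it had a median of -4.74 (stage 12), -1.81 (stage 15), -0.90 (stage 20), -0.66 (stage 25), -0.86 (stage 30), -1.60 (stage 35) and -3.29 (stage 40). The median peaked at stage 20 in the first group and at stage 25 in the second. None of the 11 earlier arrays detected 4 of the 953 lower probes (0.420%), close to the 158 of 32164 (0.491%) among all probes detected at both stages.

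**Figure D2:**
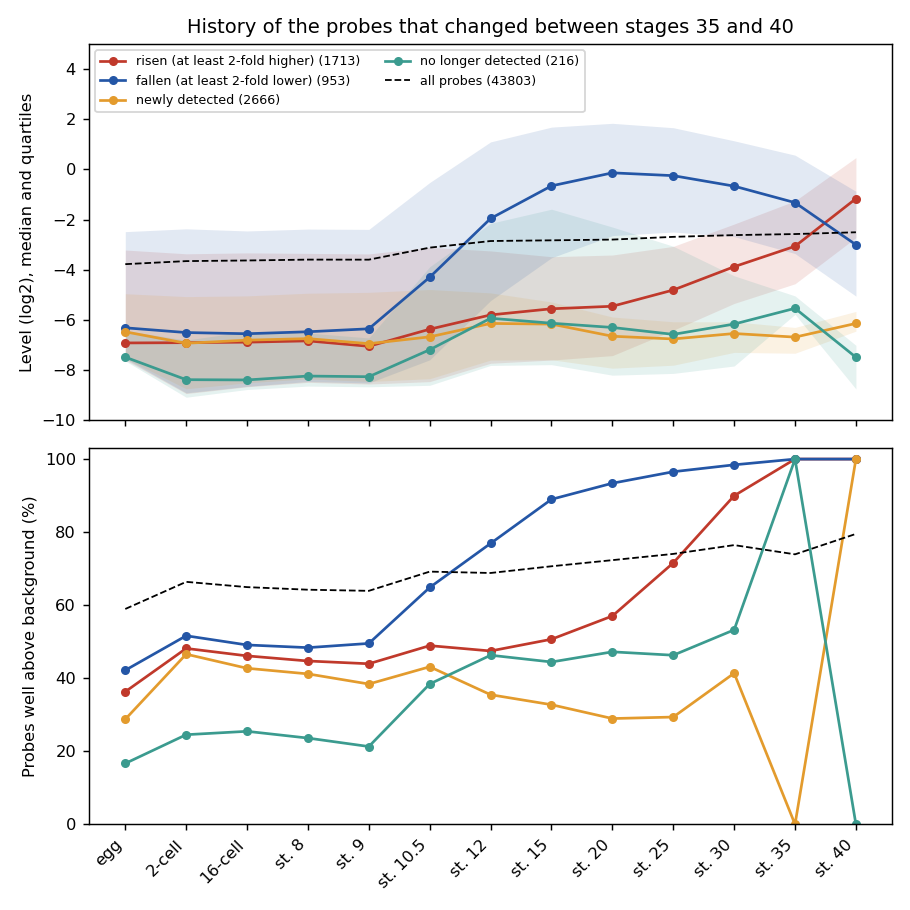
Median level with quartiles (upper panel, log2 signal minus the 75th percentile of the array) and percent of probes well above background (lower panel) on each of the 13 arrays, for the probes that were higher, lower, newly detected or no longer detected at stage 40 and for all probes. The higher probes climb to a median of -1.17 at stage 40, and the lower probes peak at -0.14 at stage 20; the values at stages 40 and 35 chose the sets.

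The step from stage 25 to stage 30 shares no array with the step from stage 35 to stage 40 and lies within 1 slide, so it could be read for the same probes. Of the higher probes, 1213 were detected at both stage 30 and stage 25, and 447 of these (36.9%) were at least 2-fold higher at stage 30, with a median difference of 0.70. Only 51 (4.20%) were at least 2-fold lower. Over all 31074 probes detected at stages 25, 30, 35 and 40, 5.73% were 2-fold higher and 2.81% were 2-fold lower in that step. Of the lower probes, 919 were detected at both stages, 183 (19.9%) were at least 2-fold lower at stage 30 and 60 (6.53%) at least 2-fold higher, with a median difference of -0.29. For the probes at least 4-fold lower at stage 40, 36.7% of 150 were 2-fold lower at stage 30. The sets were chosen by stages 40 and 35 alone. Of the 919 lower probes, 34.8% stood higher at stage 30 than at stage 25, against 76.3% of the 1213 higher probes. The share was 48.8% among all 31074 probes.

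At stage 40, 2666 probes (6.09% of 43803) were detected that were not detected at stage 35. Most of them were dim on both arrays. Their median level was -6.14 at stage 40 and -6.69 at stage 35, with a median difference of 0.64, and 957 of them differed by at least 2-fold as measured. The lowest detected level was 0.79 lower at stage 40 than at stage 35 (log2), and 1286 of the new probes stood at stage 40 at or under the lowest level that stage 35 detected. Because the stage 35 signal of such a probe is only a bound, a minimum fold was computed as the level at stage 40 against the higher of the probe's own level at stage 35 and the lowest level detected there. This bound was above 1 for 1345 probes, at least 2-fold for 342, at least 4-fold for 157 and at least 8-fold for 75. The largest was at least 345-fold higher and the tenth at least 62.2-fold higher. The scanner's error estimate for the signal, as a percentage, had a median of 16.5% at stage 40 and 34.0% at stage 35 for the new probes, against 10.0% at either stage for probes detected on both.

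Many of the new probes had been detected before. At stage 30, 1103 of the 2666 (41.4%) were detected, against 76.4% of all probes, and these 1103 had a median level of -5.97 there. On all 11 earlier arrays, 197 of the new probes (7.39%) were detected, against 52.2% of all probes. No earlier array detected 753 of the new probes (28.2%), against 7079 of all 43803 probes (16.2%). Every new probe was undetected at stage 35, where 73.9% of all probes were detected. Part of these differences from all probes was therefore fixed by the choice of the set, and they show nothing particular to the new probes. Of the 342 with a bound of at least 2-fold, 178 (52.0%) were on no earlier array. Among the earlier arrays, 46.6% (2-cell), 43.1% (stage 10.5), 29.0% (stage 20), 29.4% (stage 25) and 41.4% (stage 30) of the new probes were detected. The set therefore held probes that some earlier array had detected together with others that none had. The lowest detected level also differed between arrays, at -6.44 (stage 10.5), -5.72 (stage 12), -5.75 (stage 15) and -6.20 (stage 20). The median level of the new probes was -6.68, -6.14, -6.17 and -6.65 on these arrays. The part of the limits in the earlier shares was not tested.

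Far fewer probes were lost than gained. Detection at stage 35 and not at stage 40 was found for 216 probes (0.493%). Their median level was -7.49 at stage 40 and -5.54 at stage 35, with a median difference of -2.36, and 204 of them differed by at least 2-fold as measured. Computed as above with the arrays exchanged, the bound was at least 2-fold lower for 185 probes, at least 4-fold lower for 47 and at least 8-fold lower for 15, and the largest was at least 55.4-fold lower. At stage 30, 115 (53.2%) of the lost probes were detected, against 76.4% of all probes. On no earlier array were 66 (30.6%), against 16.2% of all probes. Every lost probe was undetected at stage 40, where 79.5% of all probes were detected, so the choice of the set fixed part of these differences too. Of 98 lost probes detected at both stage 30 and stage 25, 52 (53.1%) were at least 2-fold lower at stage 30 and 0 were at least 2-fold higher. Over all 32002 probes detected at both of these stages, 3.29% were at least 2-fold lower and 5.58% at least 2-fold higher. The median level of all 216 was higher at stage 35 (-5.54) than at stage 30 (-6.17), but detection at stage 35 chose the set. This order was therefore partly fixed by that choice.

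Gains and losses of detection in other steps give a scale for these counts. In the step from stage 30 to stage 35, 412 probes were gained and 1518 lost, and the lowest detected level was 0.44 higher at stage 35. In the step from stage 25 to stage 30, 1484 were gained and 428 lost. When stage 40 was set against stage 30 in place of stage 35, 1874 probes were newly detected and 530 no longer detected. The part of the detection limit in these counts was not tested beyond the bounds given above.

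**Figure D3:**
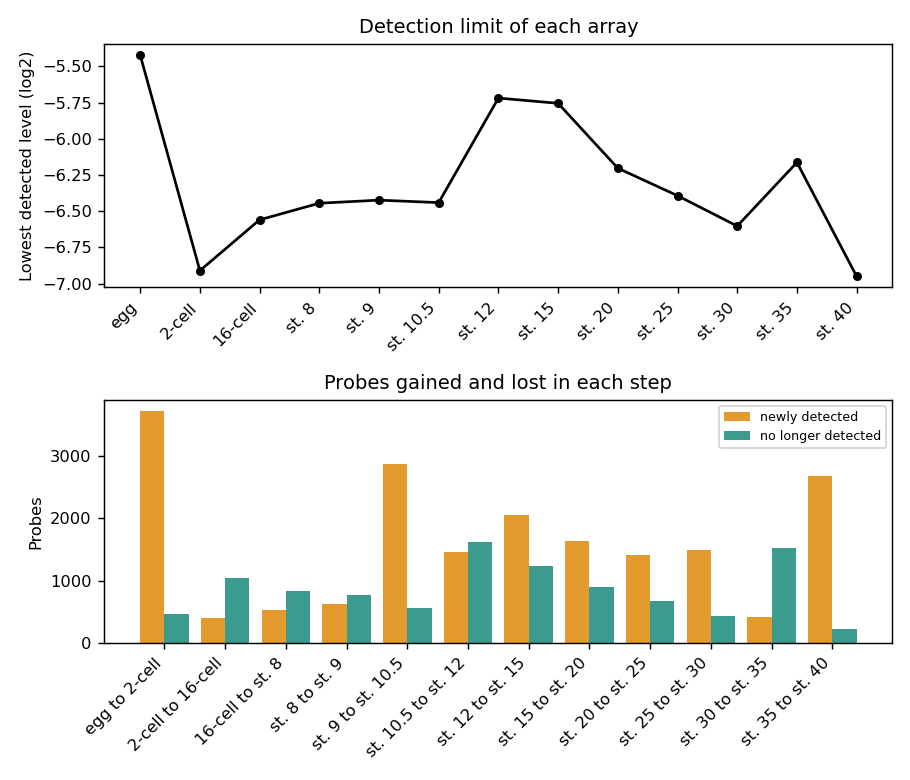
Lowest level (log2 signal minus the 75th percentile) that each of the 13 arrays detected (upper panel) and number of probes gained and lost in each step between consecutive arrays (lower panel). The limit was -6.60 (stage 30), -6.16 (stage 35) and -6.95 (stage 40), and the step to stage 40 gained 2666 probes while the step to stage 35 lost 1518.

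The share of probes that changed varied with how bright they had been. Probes were divided into quartiles of their mean level over the 11 earlier arrays, and a probe that was dim there entered the shares only where it was bright enough to be detected at both stage 40 and stage 35. In the dimmest quartile 1981 probes were detected at both stages, and 673 of these (34.0%) were at least 2-fold higher at stage 40 and 82 (4.14%) at least 2-fold lower. The second quartile had 642 of 8604 (7.46%) higher and 404 (4.70%) lower, and the third 319 of 10671 (2.99%) higher and 295 (2.76%) lower. In the brightest quartile the order turned, with 79 of 10908 (0.724%) higher and 172 (1.58%) lower. Of the newly detected probes, 1370 came from the dimmest quartile, 1170 from the second, 113 from the third and 13 from the brightest. When the array surface was divided into 4 blocks of rows, 5.64% to 6.67% of the probes in a block were new, 3.64% to 4.12% were higher and 1.89% to 2.44% were lower. The lost probes were 0.444% to 0.555% of a block of rows. In 4 blocks of columns, 5.66% to 6.62% were new, 3.82% to 4.01% higher and 2.01% to 2.25% lower. The lost probes were less even there, from 0.225% in the last block of columns to 0.711% in the third.

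The sets also differed in the kind of sequence that the probes were designed on. Accessions that begin with BC, the prefix of full-length cDNA clones in GenBank, accounted for 857 of the 1713 higher probes, 336 of the 953 lower probes (35.3%), 408 of the 2666 new probes (15.3%) and 23 of the 216 lost probes (10.6%). They accounted for 38.5% of the probes detected on both arrays and 30.6% of all probes. Of the 342 new probes with a bound of at least 2-fold, 44.2% were on such accessions. Brightness was not held constant in these shares.

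Where 2 probes of 1 accession were both measured, they served as a check on each other. Of the accessions, 15217 had 2 probes and 165 had 3, and 10278 had exactly 2 probes that were detected at both stages. Across these pairs the differences between stage 40 and stage 35 were correlated (Pearson r = 0.924, Spearman rho = 0.874, across accessions). The gap between the differences of the pair had a median of 0.10 and a 95th percentile of 0.45 (log2), and exceeded or equaled 1 for 86 pairs (0.837%), with a largest value of 3.27. The median gap was 0.13 in the dimmest quartile of level and 0.07 in the brightest, while r was 0.935 in the dimmest quartile and 0.910 in the brightest. Both probes were read from the same labeled RNA on the same array, so the gap holds no difference between embryos.

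Most probes that were higher at stage 40 were matched by their partner. The first probe of the pair, in alphabetical order of the probe names, was at least 2-fold higher for 549 accessions, and the partner passed 2-fold the same way for 458 of them (83.4%, exact 95% binomial interval 80.0% to 86.4%), shared the sign for 544 and passed 2-fold the other way for 0. Of all 10278 partners, 5.13% were at least 2-fold higher. For first probes at least 4-fold higher, 133 of 137 partners (97.1%) passed 2-fold. For lower probes, the partner passed 2-fold the same way for 220 of 285 accessions (77.2%, interval 71.9% to 81.9%), shared the sign for 275 and passed 2-fold the other way for 1, while 2.92% of all partners were at least 2-fold lower. For first probes at least 4-fold lower, 38 of 42 partners (90.5%) passed. The intervals count accessions as independent draws, which they are not. All were read from 1 labeling of each stage, so the intervals do not measure the spread between embryos.

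The partners of newly detected probes were examined in the same way. Of the 2666 new probes, 1784 shared their accession with exactly 1 other probe, which was also new for 444 of them, detected at both stages for 677, detected at neither for 655 and lost for 8. The 677 partners measured at both stages had a median difference of 0.15, and 117 (17.3%) were at least 2-fold higher and 7 at least 2-fold lower at stage 40. The picture was different for new probes with a bound of at least 2-fold, of which 240 had a partner. For these the partner was also new in 125 cases, measured at both stages in 92 and detected at neither in 23, and of the 92 measured partners 75 (81.5%) were at least 2-fold higher, 0 were at least 2-fold lower and the median difference was 1.85. For the lost probes, 144 had a partner, which was also lost for 20, measured at both stages for 55, detected at neither for 61 and newly detected for 8. Of these 55, 17 (30.9%) were at least 2-fold lower and 1 was at least 2-fold higher, with a median difference of -0.21. Lost probes with a bound of at least 2-fold gave a similar share. Of these, 123 had a partner, which was measured at both stages for 46 and detected at neither for 52. Of the 46, 15 (32.6%) were at least 2-fold lower and 1 was at least 2-fold higher, with a median difference of -0.29.

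**Figure D4:**
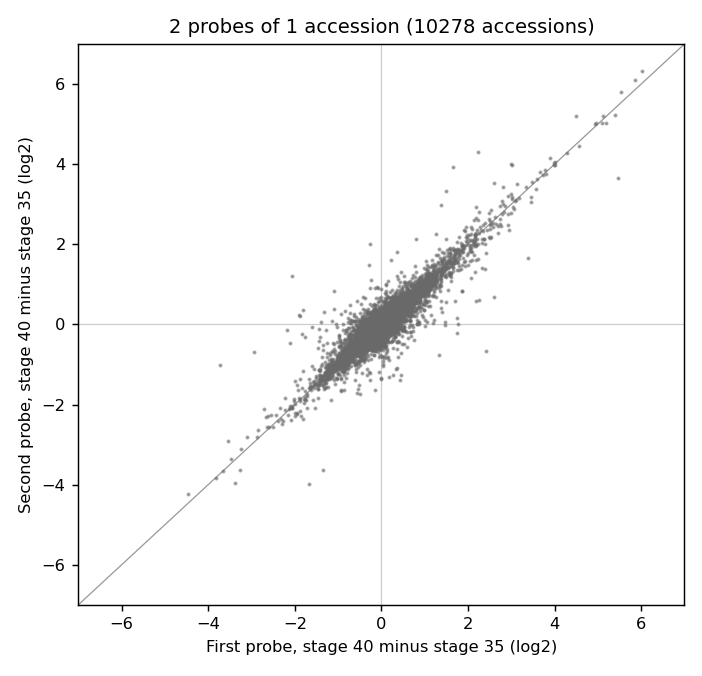
Difference between stage 40 and stage 35 (log2) for the second probe of an accession against the first, for 10278 accessions with 2 probes that were detected at both stages, with the line of equal difference. The points lie along the line (r = 0.924), and 86 pairs are apart by 1 or more.

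By a rule fixed on size and on agreement between partners, 2 accessions that were higher and 2 that were lower at stage 40 were taken as examples. These were the probes with the largest change whose partner also passed 2-fold the same way, and the values that chose them are given as a description. The largest increase by this rule was that of probe Xl#S22300542_2097, with a signal of 5226 (level 1.63) at stage 40 and 58.0 (level -4.70) at stage 35. This was an 80.1-fold difference after scaling. The probe had been detected on 10 of the 11 earlier arrays, at levels between -6.10 and -4.70, so it had been dim in every stage before the tadpole. Its stage 35 level stood above the lowest level detected on that array, -6.16. Its partner, Xl#S22300542_2057, had levels of 1.22 at stage 40 and -4.80 at stage 35, a 64.5-fold difference, after earlier levels between -6.14 and -5.00. The size of both differences depended on the processing. On the log2 scale, the 6.32 of Xl#S22300542_2097 and the 6.01 of Xl#S22300542_2057 were 7.23 and 6.88 with quantile normalization alone. They were 5.19 and 4.72 when normexp preceded it. Under the last setting both were smaller than those of the next accession.

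The next accession had been increasing for several stages. Probe Xl#S25791669_416 had levels of 2.93 at stage 40 and -3.17 at stage 35, a 68.5-fold difference. It was detected on 3 earlier arrays, with levels of -6.09 (stage 20), -5.03 (stage 25) and -4.76 (stage 30). Its partner, Xl#S25791669_376, had levels of 3.01 at stage 40 and -2.85 at stage 35, a 58.0-fold difference, after -4.51 (stage 20), -3.82 (stage 25) and -3.90 (stage 30). Both probes therefore increased over the arrays from stage 20 to stage 40, apart from a decrease of the partner between stages 25 and 30 that was smaller than the median gap between partners. The log2 differences of Xl#S25791669_416 and Xl#S25791669_376, 6.10 and 5.86, were 6.85 and 6.55 with quantile normalization alone. They were 6.03 and 5.79 when normexp preceded it.

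The largest decrease by this rule was seen with probe Xl#S13723179_312, at -5.15 at stage 40 and -0.68 at stage 35, which was 22.0-fold lower at stage 40. It was detected on all 13 arrays. It stood at -4.60 (egg), -0.15 (2-cell), 2.83 (stage 12), 0.75 (stage 20) and -0.07 (stage 30). Its stage 40 level was below that of the egg with this scaling, but its unscaled signal was 47.8 at stage 40 and 38.8 in the egg. The order of these 2 arrays therefore depended on the scaling. The partner, Xl#S13723179_624, was 18.8-fold lower at stage 40, at a level of -2.83 against 1.4 at stage 35, and its highest level, 4.79, was also at stage 12. In the egg the partner stood at -2.89, close to its level at stage 40 with this scaling. Its unscaled signal was 127 in the egg and 238 at stage 40. The log2 differences of Xl#S13723179_312 and Xl#S13723179_624, -4.46 and -4.23, were -5.16 and -4.98 with quantile normalization alone. They were -2.73 and -3.97 when normexp preceded it.

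The other accession was highest at stage 30. Probe Xl#S18083962_597 had a level of -6.40 at stage 40 and -2.42 at stage 35 and was 15.8-fold lower at stage 40. It was detected on only 2 earlier arrays, at -3.55 at stage 25 and -1.19 at stage 30. Its partner, Xl#S18083962_459, was 3.17-fold lower, at -3.47 at stage 40 and -1.81 at stage 35, with its highest level of -0.33 also at stage 30. The partner was detected on 4 earlier arrays, at -6.22 (16-cell), -5.98 (stage 8), -2.54 (stage 25) and -0.33 (stage 30). The log2 differences of Xl#S18083962_597 and Xl#S18083962_459, -3.98 and -1.66, lay further apart than the 95th percentile of the gap over all pairs. With quantile normalization alone they were -4.37 and -2.01. With normexp and quantile normalization together they were -1.37 and -1.29. That setting adds an offset of 50 to every intensity, and Xl#S18083962_597 had a signal of only 20.1 at stage 40. It therefore cannot show whether the partners agree. The probe with the highest difference of all, 9.64, had no partner that passed 2-fold on both arrays and was not taken as an example.

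**Figure D5:**
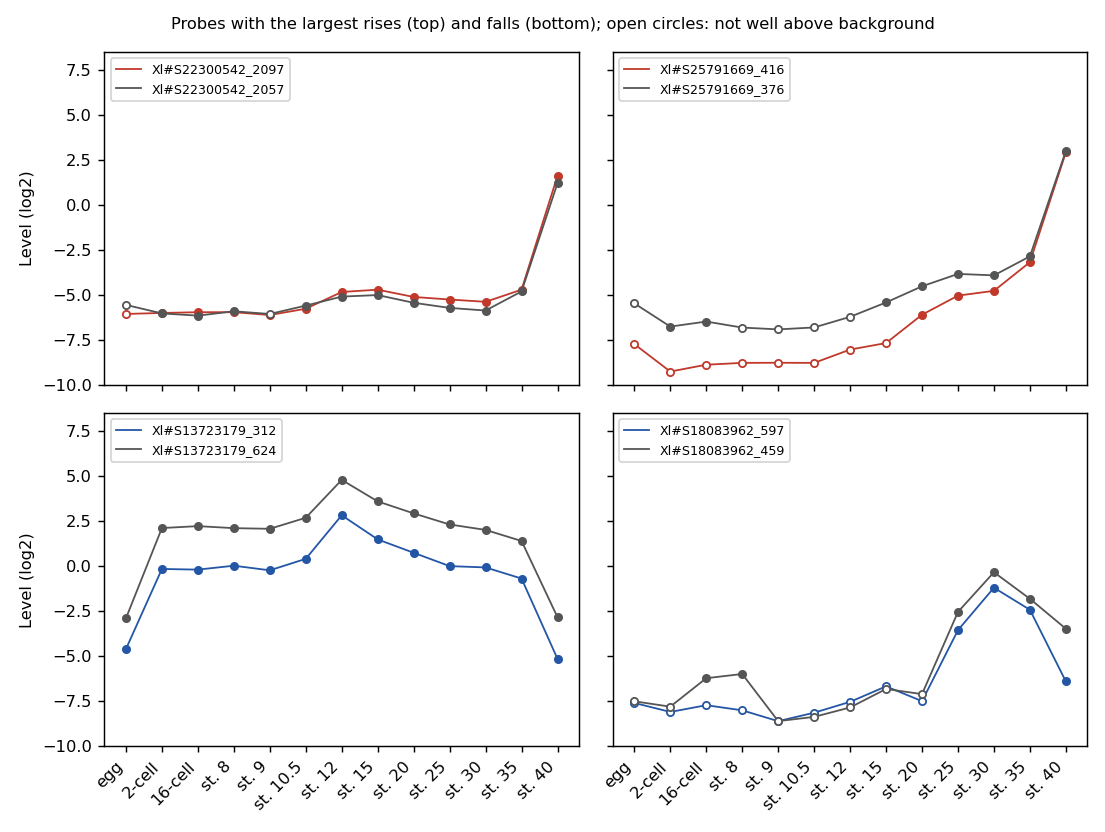
Level (log2 signal minus the 75th percentile of the array) on each of the 13 arrays for 4 pairs of probes of the same accession, 2 pairs higher (top) and 2 pairs lower (bottom) at stage 40. Open circles mark arrays on which the probe was not well above background, and the first top pair stays at -4.70 or lower until stage 35 before reaching 1.63 and 1.22 at stage 40.

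Of the glycogenes, the genes of glycan synthesis for which the series was made, 4 probes of 2 genes could be matched through their accessions. The enzyme encoded by gcnt2 adds branches to chains of N-acetyllactosamine and is known in humans for forming the I blood group antigen. Its probe Xl#S20337398_4736 had a level of -0.63 at stage 40 and -0.55 at stage 35, and its probe Xl#S20337398_4967 had -3.04 at stage 40 and -2.97 at stage 35. The differences of -0.08 and -0.07 changed sign under spike-in scaling, to 0.13 and 0.14, so no direction can be given. Both probes had been highest at stage 20, at 1.68 and -0.68, and the decline from there had ended by stage 30, at -0.87 and -3.19. The enzyme encoded by mgat5b is known from mammals for branching O-mannosyl glycans in the brain, and its probes were dim on every array. Probe Xl#S13710824_320 had a signal of 38.7 at stage 40 and 16.5 at stage 35, where it was not detected, and this gave a bound of at least 1.64-fold higher. Probe Xl#S13710824_415 had a signal of 46.5 at stage 40 and 26.6 at stage 35, a difference of 0.64. With normexp background correction and quantile normalization together, the differences of both mgat5b probes were 0.05 and 0.03, and with quantile normalization alone they were 0.82 and 0.49. The normexp setting adds an offset of 50 to every intensity, which is above each of the mgat5b signals given here. The mgat5b probes were detected on 2 and 4 of the 13 arrays, of which stage 40 was 1 for each.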

How the data were processed

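Total RNA from frozen whole embryos of each stage was labeled with Cy3 by the authors and hybridized to 1 single-color Agilent array per stage. The authors deposited scanner output, in which Feature Extraction 10.7.3.1 gave a background-corrected intensity on a linear scale and detection flags for each spot. The deposited table of the series held the same intensity in all 587860 values. The study's methods raise signals below 1 to 1, but no probe was that low. From the log2 signal of each non-control probe, the 75th percentile of its array was subtracted. No probe was left out as saturated or non-uniform. Changes were counted at 2-fold and 4-fold with no test, because each stage had 1 array, and the number of arrays limits the precision. Alternatives were median, quantile and spike-in scaling, normexp (offset 50) on median intensities followed by quantile normalization with limma 3.58.1 in R 4.3.3, other filters, and 1 mean value per accession. Using stage 30 as the earlier array and a common detection limit were chosen after seeing the data. Counts and intervals were made with pandas 2.3.3, scipy 1.17.1 and numpy 2.4.6 under Python 3.11.15, and plots with matplotlib 3.10.9. The counting was tested on simulated data.

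The sets and lists were chosen with earlier results of these data known. Of 28256 accessions, 0 were found in the RefSeq gene table (assembly Xenopus_laevis_v10.1), so lists of tissue markers that had been drawn up could not be applied. The rule then was to name the 2 probes with the largest rise and the 2 with the largest fall whose accession held at least 2 probes past 2-fold the same way, with their partners, and the glycogene probes matched by accession (4 probes, of gcnt2 and mgat5b). Sequences of the probes were not used here.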

Additional observations from a re-analysis of the deposited data

How the results depend on the processing

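Higher probes outnumbered lower ones, and new probes outnumbered lost ones, under every alternative in which both were counted. The sizes of the counts and shares moved, and the small gcnt2 differences changed sign with spike-in scaling. With normexp and quantile normalization together, 1780 probes differed by at least 2-fold, against 3827, with 1095 higher and 618 lower on arrays that both detected them. Quantile normalization alone gave 4185, and normexp was not run alone. The normexp setting adds an offset of 50 to every intensity, which reduces the fold of a dim probe. Spike-in scaling gave 623 lower probes, against 953. The share of higher probes among those that differed, 64.3%, was 57.6% with median scaling, 56.8% with quantile normalization, 79.4% with spike-in scaling and 73.5% at 4-fold. At 4-fold, 1134 probes differed, with 430 higher and 155 lower among those detected on both, and 36.7% of the lower probes were 2-fold lower at stage 30 than at stage 25, against 19.9%. With 1 value per accession, 2358 accessions detected on at least 1 of the arrays differed. Among those detected on both, 1125 were higher and 614 lower, while 1735 were new and 131 lost. With the weaker flag for a positive and significant signal, 344 probes were lost, against 216. With stage 30 as the earlier array, 3185 probes were higher, 2489 lower and 530 lost. When the level at stage 40 had also to exceed the lowest level detected at stage 35, 1380 probes were new, against 2666. Partners of higher probes passed 2-fold in 80.0% of pairs when detection on 1 array sufficed, against 83.4%. The mean SD of the spike-in spots at stage 40 was 0.0545 by the median absolute deviation, against 0.0664. The causes were not tested.

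Scaling cannot move counts of new and lost probes, which come from flags, and the deposited table equals the scanner files, so neither bears on stability. No paired analysis was possible because no stage had more than 1 array, and for the same reason leaving out an array was not run. Signal close to background limits what can be said of the new probes.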
